A study of Mus musculus with 6 samples.

Results

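The genes described here are 10 members of the bone morphogenetic protein (BMP) pathway and its targets: the homeobox genes Msx1 and Msx2, the ligands Bmp4, Bmp6 and Bmp7, the transcriptional regulators Id1, Id2, Id3 and Id4, and the inhibitory Smad gene Smad6. They were chosen by name with earlier results of these arrays known, among them the higher Msx1 value in transgenic embryos, and every probe that the platform annotation assigns to one of them was taken. All 10 genes, of 16593 named on the array, had a probe. Together they had 12 of the 25697 probes, since Id2 and Smad6 had 2 each. Summaries use 1 probe per gene, that of highest mean over the 6 arrays.

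RNA came from the frontal cortex of male C57BL/6J embryos at embryonic day 15. 3 transgenic embryos, from a line made by pronuclear injection of the bacterial artificial chromosome RP24-333C15, which spans Cyfip1, were compared with 3 wild-type littermates. Each embryo was hybridised to its own array on an Illumina MouseRef-8 bead chip, scanned in a single colour. With 6 arrays in all, the precision of each value is limited by their number, and the labels do not say whether the littermates share 1 litter. The labels do not say which other genes the artificial chromosome carries, how many founders were used or in which cells the transgene is active. In the RefSeq gene table Cyfip1 lies on chromosome 7, and none of the 10 genes lies on that chromosome. The level of Cyfip1 itself was not analysed here, so the transgene was not checked on these arrays.

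BMP ligands are secreted dimers that bind type I and type II receptor kinases, which phosphorylate Smad1, Smad5 and Smad9, and these enter the nucleus with Smad4 and switch on target genes. In the forming telencephalon BMPs are made along the dorsal midline, in the roof plate, the cortical hem and the choroid plexus that grows from it, where Msx1 and Msx2 are among the genes they induce. Id genes and Smad6 are direct targets in many cell types: Id proteins block basic helix-loop-helix factors, and Smad6 dampens the signal that induced it. Meninges, skull and skin also make and answer BMPs, so these genes do not mark the dorsal midline alone.

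All values are the authors' deposited log2 intensities, and a difference of 1 on this scale is a 2-fold change. Only the brighter part of the array was tested, the 12848 probes whose 6-array mean exceeded 7.18, the median over probes. Median scanner intensity was 131.1 to 178.5 in transgenic and 130.3 to 138.1 in wild-type samples. Some markers of the labelled tissue differed widely between samples. Fezf2, a factor of cortical projection neurons, stood at 10.32, 11.19 and 8.69 in transgenic samples 1, 2 and 3. Tbr1, another, stood at 11.16, 10.66 and 9.09. In wild-type sample 2 they stood at 6.72 and 7.09, against 9.63 to 10.10 and 10.01 to 10.55 in the other wild-type samples. Other cortex genes did not follow. Lhx2 stood at 9.51 in wild-type sample 2, 8.31 and 9.57 in the other wild-type and 8.05 to 8.85 in transgenic samples. Bcl11b stood at 11.82 in wild-type sample 2, 12.18 and 12.41 in the other wild-type and 11.43 to 12.47 in transgenic samples. En2, a factor of midbrain and hindbrain, stood at 7.01, 8.21 and 10.98 in transgenic samples and at 7.03, 12.23 and 9.0 in wild-type samples. For En2, transgenic sample 3 and wild-type sample 2 stood out. The mean of the midbrain and hindbrain list was also highest in these samples, at 9.42 and 10.27, but not every gene followed. Gbx2 was lowest of all 6 samples in wild-type sample 2, at 7.29. Irx2 was 9.37 in transgenic sample 3, below 9.46 in transgenic sample 2. The means of the muscle, skin and skull marker lists were highest in transgenic sample 1. Of the 20 roof plate and hem genes listed, 18 had a probe and 9 passed the intensity filter, which by its construction passes about 1 probe in 2. Zic1, Zic4, Axin2 and Dkk3 were bright, at the 84.9th to 97.5th percentile of all probes, while Wnt1, Wnt2b, Wnt3a and Wnt8b did not pass. The 10 genes are described as a pathway, and no tissue is assigned to them.

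Upstream sequence is shown for Msx1 and Smad6, of the genes with separate groups, for Id4, the gene whose mean was lower in transgenic samples, and for its relative Id2. RefSeq windows (GRCm38.p6) of 250 bases before to 50 after the transcription start matched 8 of the 10 genes; Bmp7 and Id1 were not matched. The first 260 bases of each window are printed, 5′ to 3′, so that the last 10 bases are transcribed. Capitals mark GTCTAGAC, the palindromic Smad box, GGCGCC, a GC-rich sequence that BMP Smads bind, and CCAAT on either strand. The region of Msx1 is chr5:37824576-37824835 on the minus strand, that of Smad6 is chr9:64022050-64022309 on the minus strand, that of Id2 is chr12:25096083-25096342 on the minus strand and that of Id4 is chr13:48260866-48261125 on the plus strand.
Msx1: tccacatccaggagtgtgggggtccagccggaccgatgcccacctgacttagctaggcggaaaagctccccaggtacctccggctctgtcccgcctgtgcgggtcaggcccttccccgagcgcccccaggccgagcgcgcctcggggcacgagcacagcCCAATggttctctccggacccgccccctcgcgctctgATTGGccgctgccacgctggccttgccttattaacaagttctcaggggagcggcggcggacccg
Smad6: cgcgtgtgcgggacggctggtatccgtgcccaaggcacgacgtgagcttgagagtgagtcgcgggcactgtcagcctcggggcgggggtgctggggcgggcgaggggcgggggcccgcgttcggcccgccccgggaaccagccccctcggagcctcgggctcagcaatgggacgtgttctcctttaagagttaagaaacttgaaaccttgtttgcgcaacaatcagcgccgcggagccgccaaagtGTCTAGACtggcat
Id2: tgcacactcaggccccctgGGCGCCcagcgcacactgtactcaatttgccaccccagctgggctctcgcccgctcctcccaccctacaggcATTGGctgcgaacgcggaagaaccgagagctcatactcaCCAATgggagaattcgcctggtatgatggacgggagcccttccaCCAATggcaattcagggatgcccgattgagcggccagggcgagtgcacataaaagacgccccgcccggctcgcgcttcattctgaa
Id4: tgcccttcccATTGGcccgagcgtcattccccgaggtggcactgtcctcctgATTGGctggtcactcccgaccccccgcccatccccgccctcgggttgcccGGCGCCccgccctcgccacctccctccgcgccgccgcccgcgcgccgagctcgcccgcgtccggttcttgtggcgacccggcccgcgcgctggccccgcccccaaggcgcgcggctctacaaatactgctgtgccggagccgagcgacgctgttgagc

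Smad6 held GTCTAGAC across its start site, from base -4 to base 4, and no other window of the 8 held it. That sequence occurs in 0.213% of the 32851 windows in the table. The Smad6 window is set at a start that lies inside the gene's full RefSeq extent. GGCGCC was found in Id2, from base -231, and in Id4, from base -148, and in 11.9% of all windows. CCAAT was found in Msx1, Msx2, Id2, Id4 and Smad6 and in 37.4% of all windows. In Smad6 it lay after the start, from base 25 to base 29, and so beyond the bases printed. The other 5 of the 8 motifs searched, each on both strands, were GTCTG, in Bmp6 and Id3 and in 49.6% of all windows, TAATTA, in Msx2 and in 5.29%, and TAATTG (8.0%), TATAAA (13.6%) and ATTTGCAT (1.74%), in none of the 8. A match describes letters and is not evidence of binding.

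Msx1 was higher in every transgenic embryo. It encodes a homeodomain repressor that marks roof plate and BMP-receiving midline cells. Its log2 intensity was 9.15, 8.54 and 9.29 in transgenic samples 1, 2 and 3, against 7.81, 7.71 and 7.88 in wild-type samples 1, 2 and 3. The lowest transgenic value lay 0.66 above the highest wild-type value, and the wild-type samples lay close together. The means were 8.99 ± 0.40 in transgenic and 7.80 ± 0.08 in wild-type samples (SD, n = 3 each), and so differed by 1.20 (SE 0.20), or 2.29-fold. The difference was 1.28 between transgenic sample 1 and wild-type sample 3, whose animal numbers are under 100, and 1.16 among the 4 embryos numbered over 200. Leaving out wild-type sample 2 gave 1.15, leaving out transgenic sample 1 as well gave 1.07, and leaving out transgenic sample 3 in its place gave 1.0, and the groups stayed apart in each case.

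Msx2, the close relative of Msx1 that is induced with it by BMPs in limb, skull and roof plate, gave no comparable signal. Its values were 7.14, 6.96 and 6.78 in transgenic samples and 6.88, 6.83 and 6.89 in wild-type samples. The groups overlapped, the mean over the 6 arrays stood at the 34.0th percentile of all probes, and Msx2 was not tested. Without a detection p, this level cannot be set against background.

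Of the ligands, Bmp4 was higher in every transgenic embryo, while Bmp7 was not. Bmp4 is a ligand of the dorsal midline, of the meninges and of developing skull and skin. It stood at 10.10, 8.79 and 8.65 in transgenic samples, against 8.43, 7.60 and 7.09 in wild-type samples. Transgenic sample 1 stood above all others, and the groups were separated by 0.22. The means were 9.18 ± 0.80 in transgenic and 7.70 ± 0.68 in wild-type samples (SD, n = 3 each), and so differed by 1.47 (SE 0.48), or 2.78-fold. Bmp4 differed by 3.01 within the pair numbered under 100 and by 0.70 among the 4 embryos numbered over 200. With wild-type sample 2 left out, Bmp4 differed by 0.96 when transgenic sample 1 was also dropped and by 1.68 when transgenic sample 3 was.

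Bmp7, which the meninges and the hem secrete, stood at 8.45, 8.28 and 8.40 in transgenic samples and at 8.58, 7.09 and 7.26 in wild-type samples. Wild-type sample 1 had the highest value of all 6, so the groups overlapped. The means were 8.38 ± 0.09 in transgenic and 7.64 ± 0.81 in wild-type samples (SD, n = 3 each), and so differed by 0.74 (SE 0.38), less than the wild-type SD. Without wild-type sample 2 Bmp7 differed by 0.46, and without wild-type sample 1 by 1.20. Since wild-type sample 1 was the overlapping sample, dropping it had to set the groups apart, beside 26.8% of all tested probes in either direction. Bmp6, a ligand of the BMP5 to BMP8 branch, stood at 6.82, 6.92 and 6.98 in transgenic samples and at 6.94, 6.71 and 6.74 in wild-type samples. These overlapping values lay at the 27.4th percentile of all probes, and Bmp6 was not tested.

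**Figure D1:**
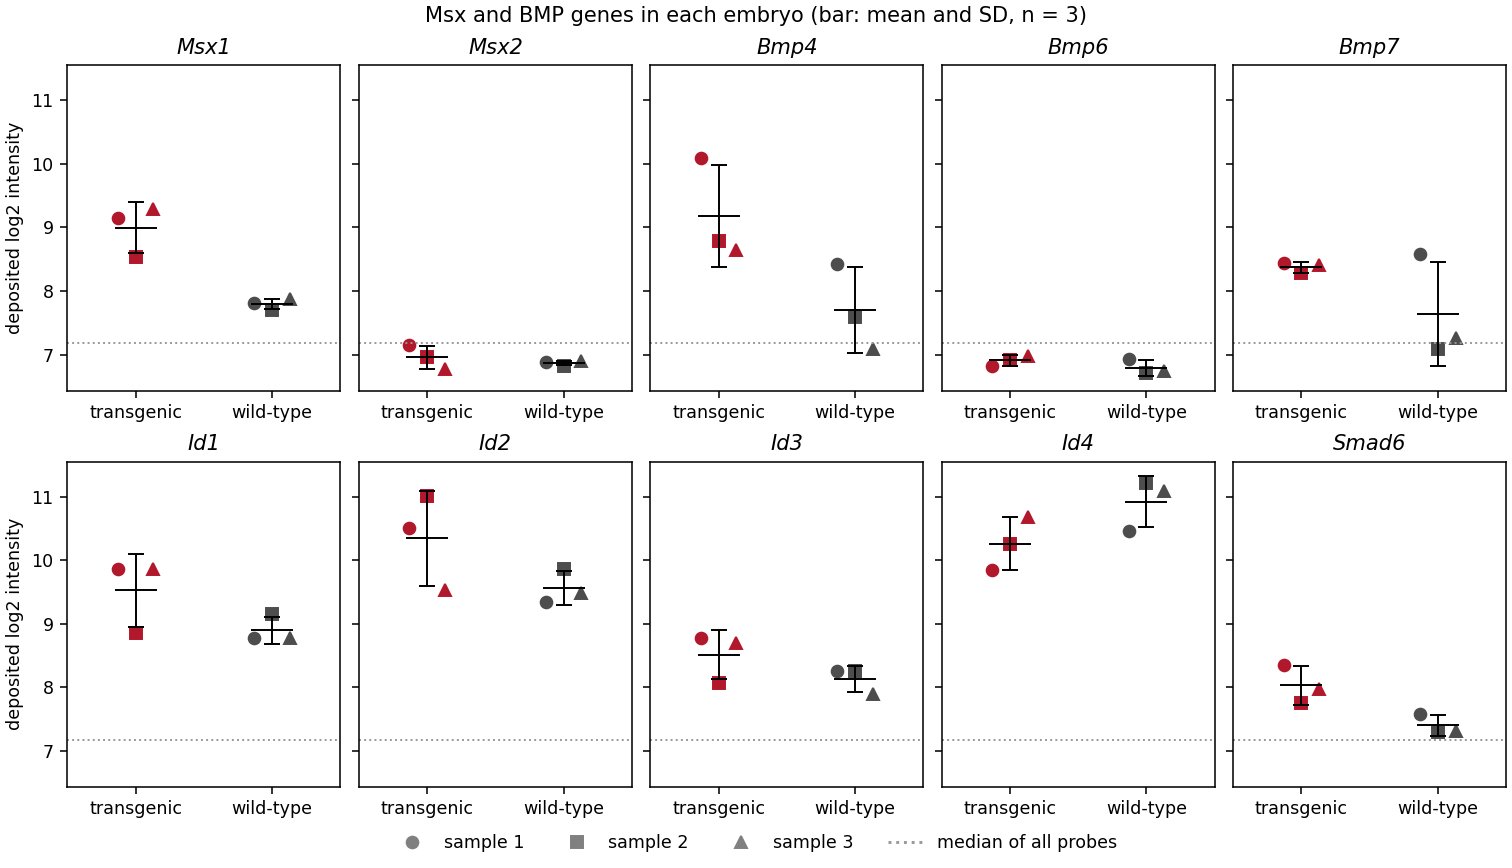
Deposited log2 intensity (vertical axis) of each of the 10 genes in transgenic (left, red) and wild-type (right, grey) embryos, with 1 symbol per embryo, a black bar for mean and SD of 3 embryos, and a dotted line at the median of all probes, 7.18. The transgenic symbols lie above all wild-type symbols for Msx1, Bmp4 and Smad6, overlap them for Bmp7 and the Id genes, and Msx2 and Bmp6 lie at or below the dotted line.

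Smad6, the inhibitory Smad that BMP signalling induces as feedback, was higher in every transgenic embryo. Its brighter probe stood at 8.36, 7.76 and 7.97 in transgenic samples, against 7.59, 7.30 and 7.32 in wild-type samples. Transgenic sample 1 was again the highest, and the gap between the groups was 0.17. The means were 8.03 ± 0.30 in transgenic and 7.40 ± 0.16 in wild-type samples (SD, n = 3 each), and so differed by 0.63 (SE 0.18), or 1.54-fold. The dimmer probe, at the 43.7th percentile and not tested, stood at 7.06, 7.07 and 7.28 in transgenic samples and at 6.96, 6.89 and 7.03 in wild-type samples. These groups were also apart, by 0.03, with a mean difference of 0.18. Smad6 differed by 1.04 within the pair numbered under 100 and by 0.42 among the 4 embryos numbered over 200. Dropping transgenic sample 1 and wild-type sample 2 left 0.41.

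The 4 Id genes did not share 1 direction: the means of Id1, Id2 and Id3 were higher and that of Id4 lower in transgenic samples, all with overlapping groups. Id proteins lack a DNA-binding region and hold progenitors undifferentiated by capturing E proteins, the partners of proneural factors. Id1 stood at 9.86, 8.86 and 9.86 in transgenic samples and at 8.77, 9.15 and 8.77 in wild-type samples. Transgenic samples 1 and 3 were high, while transgenic sample 2 lay below wild-type sample 2. The means were 9.53 ± 0.58 in transgenic and 8.90 ± 0.22 in wild-type samples (SD, n = 3 each). Id1 differed by 0.63 (SE 0.29), and by 0.96 without transgenic sample 2. Since that was the overlapping transgenic sample, dropping it had to set the groups apart, beside 26.8% of all tested probes in either direction.

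Id3, often expressed with Id1, showed the same order among transgenic samples, at 8.78, 8.07 and 8.70, against 8.25, 8.25 and 7.89 in wild-type samples. Transgenic sample 2 lay below wild-type samples 1 and 2. The means were 8.52 ± 0.39 in transgenic and 8.13 ± 0.21 in wild-type samples (SD, n = 3 each). Id3 differed by 0.38 (SE 0.22), by 0.61 without transgenic sample 2, by 0.25 without transgenic sample 1 and by 0.13 among the 4 embryos numbered over 200.

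Id2, which is expressed in postmitotic cortical neurons as well as in progenitors, had another order. Its brighter probe stood at 10.50, 11.00 and 9.53 in transgenic samples and at 9.34, 9.87 and 9.49 in wild-type samples. Transgenic sample 2 was highest here, and transgenic sample 3 lay within the wild-type range. The means were 10.35 ± 0.75 in transgenic and 9.57 ± 0.27 in wild-type samples (SD, n = 3 each). Id2 differed by 0.78 (SE 0.37), by 0.45 when transgenic sample 2 was dropped and by 1.19 when transgenic sample 3 was. The dimmer Id2 probe, at 8.58, 9.15 and 8.07 in transgenic and 7.71, 8.19 and 8.06 in wild-type samples, kept that order of transgenic samples and differed by 0.61 (SE 0.28). For both probes the 2 highest samples were transgenic samples 1 and 2, the 2 with the highest means of the cortex marker list, of which 7 of 12 genes were tested and Bcl11b and Tbr1 were brightest. These means were 9.99 and 10.12, against 8.46 in transgenic sample 3 and 9.13, 8.07 and 9.78 in wild-type samples 1, 2 and 3. The wild-type samples did not keep that order. Wild-type sample 2, the lowest of all 6 for the cortex list, was the highest wild-type sample for both Id2 probes. A link of Id2 to cortical content was not tested.

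Id4, the Id gene of cortical progenitors and astroglia, had a lower mean in transgenic samples. It stood at 9.85, 10.25 and 10.68 there, against 10.46, 11.21 and 11.08 in wild-type samples. Transgenic sample 3 lay above wild-type sample 1, so the groups overlapped. The means were 10.26 ± 0.41 in transgenic and 10.92 ± 0.40 in wild-type samples (SD, n = 3 each), and so differed by -0.66 (SE 0.27). Id4 differed by -0.51 without wild-type sample 2 and by -0.30 when transgenic sample 1 was dropped with it. The mean of the radial glia list, with 9 of 12 genes tested and led by Slc1a3 and Vim, was 9.77 to 10.08 in transgenic and 9.76 to 10.21 in wild-type samples. Its genes were mixed, 5 with a higher and 4 with a lower mean in transgenic samples. Hes1 was apart above and Fabp7 apart below, beside 5.94% and 8.25% of all tested probes. Fabp7 stood at 9.29, 9.51 and 9.36 in transgenic and 9.64, 9.74 and 9.80 in wild-type samples.

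Of the 10 genes 8 passed the intensity filter, 7 with a higher and 1 with a lower mean in transgenic samples, beside 43.8% of all tested probes with a higher mean. The median difference of these 8 was 0.68, beside -0.03 for all 12848 tested probes. Groups did not overlap, with transgenic above, for 3 of the 8, Msx1, Bmp4 and Smad6, beside 5.94% of all tested probes, and with transgenic below for 0 of the 8, beside 8.25%; 14.2% of tested probes were apart in either direction. Since the genes were chosen with this contrast known, nothing is read from these counts. Across all tested probes 0 passed limma's test at an adjusted p of 0.05 (0% called), the 8 genes included, and 897 (6.98%) had an unadjusted p under 0.05. With 3 embryos a group, the smallest two-sided p that exact permutation allows is 0.1. Without wild-type sample 2 the groups were apart for 5 of the 8, Id1 and Id2 being added, beside 8.91% of all probes above and 11.3% below. Leaving out transgenic sample 1 too, the same 5 genes were apart, beside 14.4% above and 16.5% below. Leaving out transgenic sample 3 in its place, these 5 were apart and Id4 was apart below, beside 13.6% above and 17.7% below. Groups of fewer samples separate more easily.

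**Figure D2:**
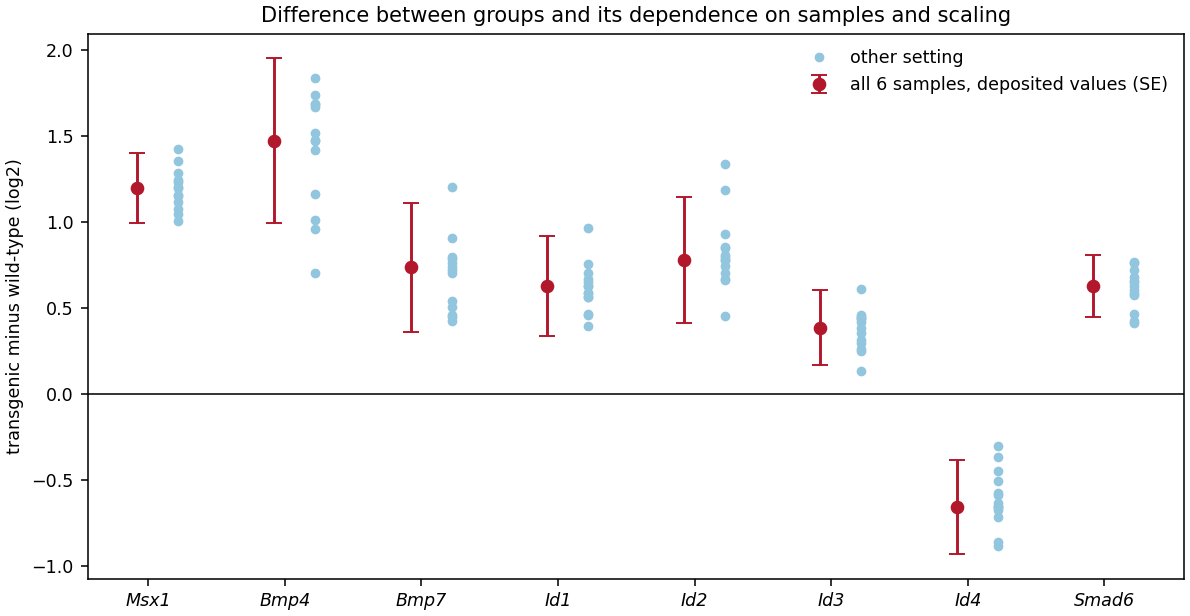
Difference transgenic minus wild-type on the log2 scale (vertical axis) for the 8 genes that passed the intensity filter, with red points and bars for value and SE from all 6 samples and blue points for the same gene with samples left out, other scaling or another filter. Every blue point keeps the sign of its red point, with Msx1 between 1.0 and 1.42, Bmp4 between 0.70 and 1.84 and Id4 between -0.89 and -0.30.

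Markers of several other tissues and cell types also had higher means in transgenic samples, and none of their genes passed the adjusted threshold. For the skull, muscle and skin lists only transgenic sample 1 lay above the wild-type range. More cells of a type and more RNA per cell cannot be told apart in such samples. Of 19 choroid plexus genes 14 had a probe and 13 passed the filter, and their mean was 8.32 to 9.58 in transgenic and 7.54 to 8.38 in wild-type samples, with summed linear intensities of 5929 to 34538 in transgenic and 2837 to 15554 in wild-type samples. Ttr, the thyroxine carrier of choroid plexus epithelium, stood at 9.11, 13.57 and 14.57 in transgenic samples and at 7.33, 7.38 and 13.49 in wild-type samples. The groups of Ttr overlapped, with wild-type sample 3 above transgenic sample 1. Aqp1, the water channel of that epithelium, stood at 10.74, 8.22 and 10.01 in transgenic and 7.46, 7.18 and 7.87 in wild-type samples, and its groups were apart. A dimmer Aqp1 probe differed by 1.44 with groups apart, and another, also above the filter, by 0.95 with overlapping groups. Ecrg4 and Clic6, of the same list, also had groups apart, with Ecrg4 at 9.68, 8.91 and 10.21 in transgenic and 7.97, 7.12 and 8.36 in wild-type samples. Clic6 stood at 9.29, 9.0 and 10.85 in transgenic and 7.05, 6.87 and 8.97 in wild-type samples. Otx2, a factor of choroid plexus and midbrain, stood at 8.49 to 11.38 in transgenic and 7.71 to 12.36 in wild-type samples. Of the 13 tested genes 10 had a higher and 3, Otx2, Trpm3 and Foxj1, a lower mean in transgenic samples. Kcne2 and Folr1 were among those with a higher mean and overlapping groups.

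The mean of the meningeal and fibroblast list, with 17 of 20 genes tested, was 10.49, 9.42 and 9.61 in transgenic and 9.48, 8.39 and 8.37 in wild-type samples, with summed linear intensities of 32681 to 61859 in transgenic and 16762 to 36292 in wild-type samples. Wild-type sample 1 was the highest wild-type sample for this list, and also for Bmp4 and Bmp7. Igf2, the brightest gene of this list, stood at 14.09 to 14.64 in transgenic and 12.80 to 14.13 in wild-type samples. Zic1, the next brightest, is also in the roof plate and hem list. It stood at 11.09 to 12.53 in transgenic and 12.27 to 12.84 in wild-type samples. Of the 17 tested genes 16 had a higher and 1, Zic1, a lower mean in transgenic samples. Skull and head mesenchyme genes, 9 of 14 tested, had means of 10.25, 7.80 and 7.95 in transgenic samples and 7.77 to 8.41 in wild-type samples. Sp7, a factor of bone-forming cells, stood at 11.0 in transgenic sample 1, where Bmp4 and Smad6 were highest, and at 6.97 and 7.19 in the other transgenic samples and 6.68 to 7.80 in wild-type samples. Col2a1 and Tnc, the brightest of that list, stood at 8.65 to 13.26 and 9.54 to 10.32 in transgenic and at 8.77 to 9.98 and 9.37 to 11.22 in wild-type samples. Muscle genes, 12 of 15 tested and led by Acta1 and Myl1, had means of 10.32, 7.17 and 7.24 in transgenic and 7.24 to 8.75 in wild-type samples. Skin genes, 4 of 10 tested and led by Krt10 and Krt14, had means of 10.40, 7.90 and 7.94 in transgenic and 7.87 to 8.86 in wild-type samples. Endothelial genes, 11 of 13 tested and led by Egfl7 and Esam, had means of 8.89 to 9.30 in transgenic and 8.48 to 9.0 in wild-type samples. Microglial genes, 9 of 10 tested and led by Fcer1g and C1qb, had means of 8.31 to 8.55 in transgenic and 7.61 to 8.13 in wild-type samples. Midbrain and hindbrain genes, 7 of 10 tested and led by Irx3 and Gbx2, had means of 8.17 to 9.42 in transgenic and 7.67 to 10.27 in wild-type samples. Groups were apart with transgenic above for 6 of 9 microglial, 4 of 13 choroid plexus, 3 of 17 meningeal and 2 of 11 endothelial genes, beside 5.94% of all tested probes. None of the tested skull, muscle, skin and midbrain and hindbrain genes was apart above, and 1 muscle gene was apart below, beside 8.25%. The part of these tissues in the differences of the 8 genes was not tested. With transgenic sample 1, the sample bright for skull, muscle and skin, left out, Msx1 differed by 1.12, Bmp4 by 1.01 and Smad6 by 0.46.

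**Figure D3:**
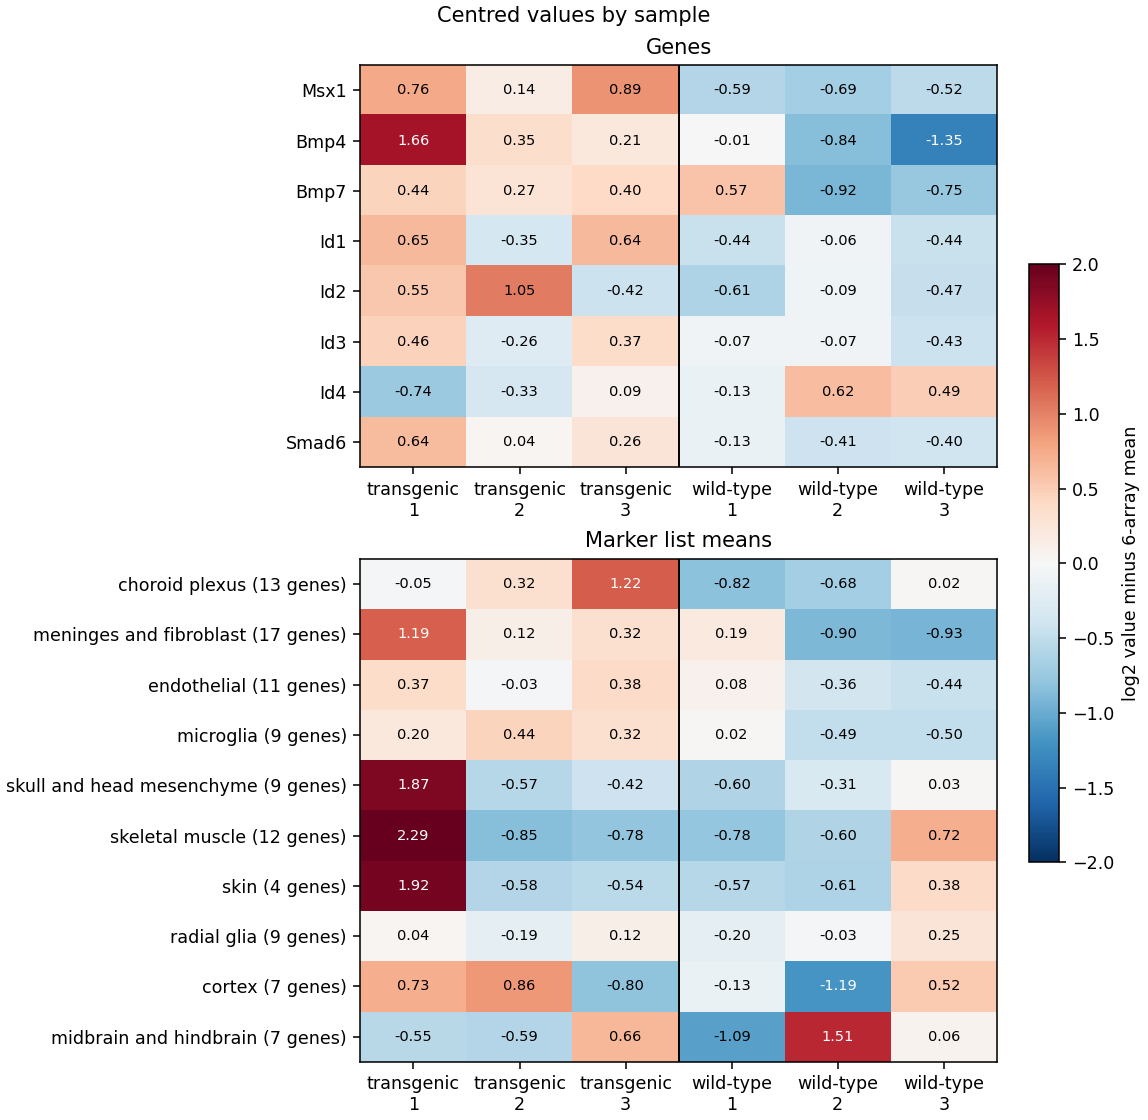
Log2 values minus the 6-array mean for the 8 genes that passed the filter (upper panel) and for the means of 10 marker lists (lower panel), with transgenic samples left of the line and wild-type samples right of it and red above, blue below that mean. Wild-type sample 1 is red for Bmp7 and for the meningeal list, and transgenic sample 1 is darkest for Bmp4 and for the skull, muscle and skin lists.

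The wider pathway was taken from 5 lists of ligands, receptors, Smads and partners, antagonists and targets. Of 60 genes 53 had a probe and 35 were tested, 26 with a higher and 9 with a lower mean in transgenic samples. None passed limma's adjusted threshold in either direction. The median difference was 0.16, beside -0.03 for all tested probes. Groups were apart for 4 genes with transgenic above, beside 5.94% of all tested probes, and for 2 with transgenic below, beside 8.25%.

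Of the ligands 3 of 8 with a probe were tested, all with overlapping groups. The activin subunit genes Inhba and Inhbb differed by 0.64 (SE 0.37) and 0.46 (SE 0.43), and Bmp3, which antagonises other BMPs, by 0.42 (SE 0.25). Bmp2, Bmp5, Gdf5, Gdf6 and Gdf7 did not pass the intensity filter.

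Of the receptors and co-receptors 8 were tested, 4 with a higher and 4 with a lower mean. Eng, the co-receptor of endothelial cells, stood at 8.91, 8.27 and 8.74 in transgenic and 8.22, 7.92 and 8.10 in wild-type samples, and so differed by 0.56 (SE 0.19) with groups apart. Acvr2a, a type II receptor, stood at 7.49, 7.80 and 7.79 in transgenic and 8.37, 8.03 and 8.07 in wild-type samples, and so differed by -0.47 (SE 0.15) with groups apart. These 2 of the 8 stand beside 5.94% of all tested probes apart above and 8.25% apart below. The type I receptor gene Bmpr1b differed by 0.60 (SE 0.31) and the co-receptor gene Rgmb by -0.49 (SE 0.29), with overlapping groups.

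Among the Smads that carry the signal, differences were smaller than their SE. Smad1 differed by -0.06 (SE 0.13), Smad5 by 0.01 (SE 0.21) and Smad4, their shared partner, by 0.16 (SE 0.20). Of 8 genes tested in this list 1 was apart, with transgenic below, beside 8.25% of all tested probes. It was Zfp423, a zinc finger factor that binds BMP Smads, at 7.84, 7.47 and 7.91 in transgenic and 7.94, 8.34 and 8.38 in wild-type samples. Zfp423 differed by -0.48 (SE 0.18), and its other probe by -0.46 with overlapping groups. The corepressor gene Skil differed by -0.13 (SE 0.12) and Tob1, which binds Smads, by 0.07 (SE 0.17).

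Of 9 antagonists and matrix modulators tested, 8 had a higher mean. Nbl1, which encodes the BMP-binding protein DAN, stood at 10.29, 9.85 and 9.93 in transgenic and 9.81, 8.81 and 8.38 in wild-type samples, and so differed by 1.02 (SE 0.36) with groups apart by 0.03. Sostdc1, a secreted antagonist that is also in the choroid plexus list, stood at 9.02, 7.87 and 9.80 in transgenic and 7.75, 7.60 and 7.91 in wild-type samples. Its groups overlapped through transgenic sample 2, and it differed by 1.14 (SE 0.45). Fstl1 differed by 1.11 (SE 0.54) and was 11.72 in transgenic sample 1, against 8.91 to 10.03 in the other 5 samples. Bmper differed by 0.32 (SE 0.23), and Nog, the antagonist noggin, by -0.08 (SE 0.17).

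Of the 7 other targets tested, 2 were apart with transgenic above, beside 5.94% of all tested probes. Tbx3, a T-box repressor, stood at 8.61, 9.15 and 9.40 in transgenic and 8.41, 7.11 and 7.76 in wild-type samples, and so differed by 1.29 (SE 0.35). Another Tbx3 probe differed by 0.91 with groups apart. Hes1, a target of Notch as well, stood at 9.56, 8.75 and 9.42 in transgenic and 8.53, 8.54 and 8.72 in wild-type samples, and so differed by 0.65 (SE 0.22). As for Msx1, Bmp7, Id1, Id3 and the brighter Smad6 probe, transgenic sample 2 was the lowest transgenic sample for Hes1. Gata2 differed by 0.50 (SE 0.61) and Cdkn1a by 0.09 (SE 0.25), with overlapping groups.

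**Figure D4:**
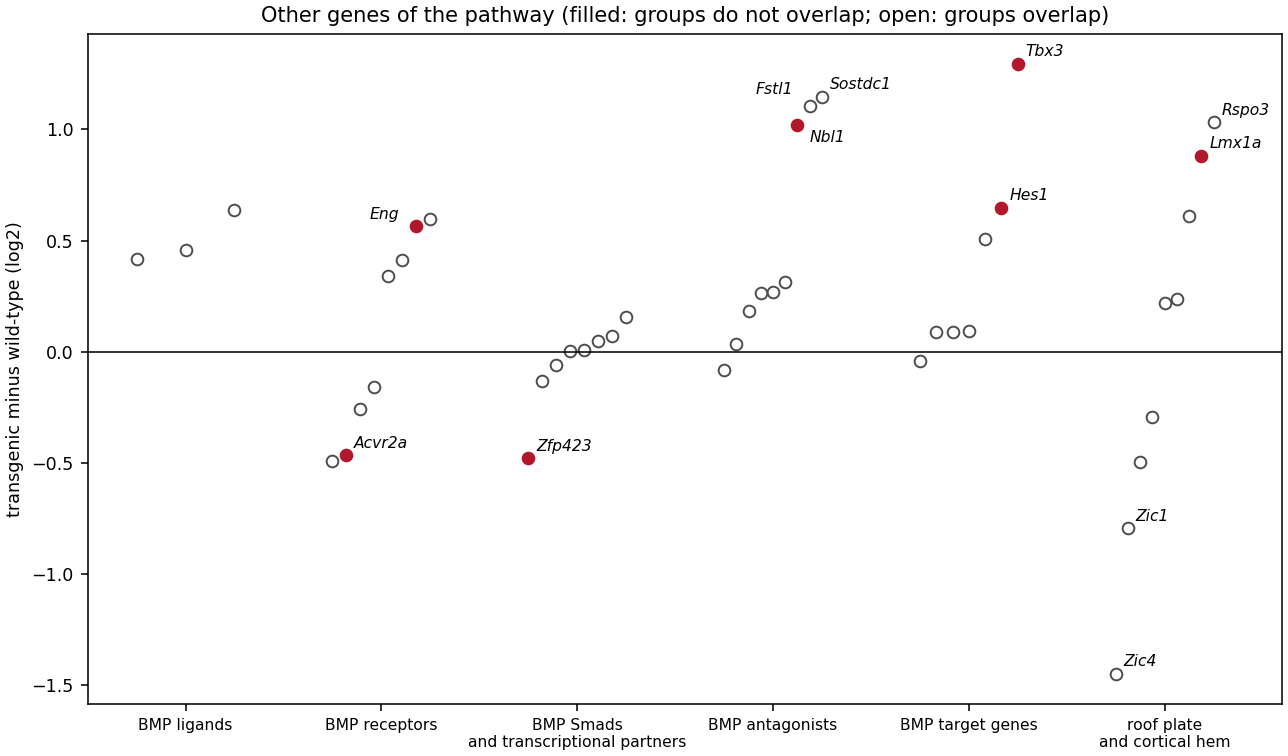
Difference transgenic minus wild-type on the log2 scale (vertical axis) for the tested genes of 5 BMP pathway lists and of the roof plate and hem list, with 1 point per gene, filled where the groups do not overlap. Tbx3, at 1.29, Rspo3, at 1.03, and the 3 antagonist genes Sostdc1, Fstl1 and Nbl1 lie above 1, Zic4 lies lowest, at -1.45, and the points of the Smad list lie between -0.48 and 0.16.

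Among the roof plate and hem genes, 9 tested, 5 had a higher and 4 a lower mean, and none passed limma's adjusted threshold. Lmx1a, the LIM homeobox gene that specifies roof plate and hem, stood at 7.45, 7.65 and 8.49 in transgenic and 7.07, 6.88 and 7.0 in wild-type samples, and so differed by 0.88 (SE 0.27) with groups apart. Its other 2 probes did not pass the filter: 1 differed by 0.06 with overlapping groups, and the other by -0.14 with groups apart and transgenic below. Rspo3, a Wnt agonist, differed by 1.03 (SE 0.47). Zic4 and Zic1, zinc finger genes of dorsal midline and meninges, differed in the other direction, by -1.45 (SE 0.61) and -0.80 (SE 0.36). The groups of Rspo3, Zic4 and Zic1 overlapped.

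Likeness to a gene was measured as the root mean square difference between values centred on the 6-array mean, over 6 arrays and 9071 other genes. The nearest to Msx1 were Col18a1, a basement membrane collagen, at 0.19, Samd9l at 0.22, the RNA-binding protein gene Rbm47 at 0.23, Gpx8 at 0.24 and the forkhead gene Foxa1 at 0.24, all on the log2 scale. Groups were apart with transgenic above for each of these 5, beside 5.94% of all tested probes. Genes picked for likeness to Msx1, whose groups are apart, tend to be apart too, so nothing is read from this count. The nearest to Id1 were Ece1 at 0.12, Grhpr at 0.17, Lman1 at 0.17, Slc4a2 at 0.18 and Rbms1 at 0.18. Of these 5, likewise picked on these arrays, Grhpr and Rbms1 had groups apart with transgenic above.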

How the data were processed

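The data are 6 Illumina bead arrays, 3 transgenic and 3 wild-type, grouped by the genotype in the labels. Sample numbers only name embryos, and the labels give each its own animal number. The deposited scanner table holds 1 linear intensity per probe. The submitters' processing notes name BeadStudio without a version or settings. The authors' deposited value table holds log2 values that equal quantile normalization of the log2 scanner intensities, without background correction, to within 5e-09, so fold changes of dim probes are understated. With normexp background correction the differences were 1.35 for Msx1 and 1.69 for Bmp4. Probes were named by the platform annotation, 23978 with 1 gene, 0 with several and 1719 with none, and 0 symbols changed against RefSeq.

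Differences and SE came from limma 3.58.1 (lmFit and eBayes, R 4.3.3) on the log2 values of the 12848 tested probes, without covariates, with Benjamini-Hochberg adjustment over all of them, and the test was tried on simulated arrays. The members and all lists were chosen with earlier results of these data known, so members are described without a test. Named pathway genes are those with groups apart and, up to 4 a list, those of largest difference, named marker genes are the 2 brightest of each list and those needed beside a result, and genes of like pattern are the 5 nearest to Msx1 and Id1, with the signal-carrying Smads and noggin added after their values were seen. All arrays share 1 slide. Alternatives were other background correction, scaling and filters, samples left out and the animal number range as a block.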

Additional observations from a re-analysis of the deposited data

How the results depend on the processing

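All 8 differences kept their sign under each of the 15 alternatives that could give them a value. limma's adjusted threshold was passed by 0 probes under each of these, while 897 had an unadjusted p under 0.05 in the full set. The median of the 8 genes ranged from 0.46, among the 4 embryos numbered over 200, to 0.79, with normexp. Among these 4 embryos Bmp4 differed by 0.70, and 38.4% of probes had groups apart. Only 3 of the genes, Id1, Id2 and Id4, pass a filter at the 75th percentile of probes. Their groups overlapped as before, so 0 were apart, beside 13.9% of the 6424 probes that pass it. With samples left out fewer values have to separate: the share of probes apart was 20.2% to 30.3% and the count of genes apart 3 to 5 with 1 sample left out. Each of transgenic samples 2 and 3 and wild-type samples 1 and 2, left out alone, gave 5 genes. Dropping wild-type sample 2 together with transgenic sample 1 gave 30.9% and 5, and together with transgenic sample 3, an alternative chosen after seeing the data, 31.3% and 6. The dimmer Smad6 probe differed by 0.18. The causes were not tested. The labels give no replicate numbers that pair single embryos. With a block for animal numbers under 100 against over 200, Msx1 differed by 1.20 (SE 0.20), Bmp4 by 1.47 (SE 0.50) and Smad6 by 0.63 (SE 0.17), and the block changed no call. Msx2 and Bmp6 lay below the intensity filter and were not compared.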
